A study of Mus musculus with 15 samples.

Results

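The long noncoding RNAs described here are 9 of the 32657 features of the deposited count files, taken by gene symbol from a list of RNAs known from brain: Malat1, Neat1, Miat, Meg3, Rian, Mirg, Snhg11, Mir124a-1hg and 5930403L14Rik. They were selected on their fold between ribosome pulldown and input in earlier results of these same data, where they were far below the input, so their depth of depletion is given here as a description, and nothing is read from its p-values. The data were 15 RNA-seq libraries from translating ribosome affinity purification (TRAP) of mouse dentate gyrus (DG), in which an EGFP-tagged ribosomal protein L10a is made in Cre-expressing cells and pulled down with antibodies to EGFP. The study asked how loss of the serotonin receptor gene Htr4 in hippocampal cells alters what those cells translate.

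All animals carried the Drd3-Cre BAC line KI198 (KI198Cre) and the Rosa26-fsTRAP allele, on a C57BL/6J background, and were 8 to 12 weeks old. WT denotes these mice with intact Htr4, and cKO denotes those that also carried the floxed Htr4 allele, in which exon 5 is flanked by loxP sites. For each genotype there were libraries from the pulldown of ventral DG (vDG IP), from the vDG homogenate before pulldown (vDG input) and from the dorsal DG homogenate (dDG input), with 3 WT and 2 cKO libraries of each. According to the study's description, KI198Cre is active in mature granule cells, mossy cells and part of the CA pyramidal cells, and not in interneurons or glia, so the inputs hold cell types that the IP does not tag. The inputs came from homogenate that had been cleared by centrifugation before detergent was added and again, at higher speed, after it. How much of the nuclei it still held is not given in the sources used here. The sample records call the input tissue cortex where the titles name the DG, and they give pools of 3 mice for an IP and 2 for an input where the methods give 1 male and 1 female.

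Long noncoding RNAs are transcripts that are not known to encode a conserved protein, and many of them stay in the nucleus. Malat1 localizes to nuclear speckles, where splicing factors gather, and Neat1 is the scaffold on which paraspeckles form. Miat, also called Gomafu, is a neuronal nuclear RNA. Meg3, Rian and Mirg are made from the maternal chromosome of the imprinted Dlk1-Dio3 region and carry microRNAs and, in Rian, small nucleolar RNAs (snoRNAs) in their introns. Snhg11 is a snoRNA host gene of neurons, Mir124a-1hg is the host of a precursor of the neuronal microRNA miR-124, and 5930403L14Rik has no established role. TRAP recovers RNA bound to tagged ribosomes, and RNA that is off ribosomes or made in untagged cells is carried over only as background.

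The positions are given on mm10 from GENCODE M21, except for 5930403L14Rik. Malat1 (ENSMUSG00000092341, chr19:5795690-5802672, minus strand) and Neat1 (ENSMUSG00000092274, chr19:5824708-5845478, minus strand) are neighbours. Meg3 (ENSMUSG00000021268, chr12:109541001-109571726), Rian (ENSMUSG00000097451, chr12:109603940-109661716) and Mirg (ENSMUSG00000097391, chr12:109729764-109749460) follow each other on the plus strand. Miat (ENSMUSG00000097767) lies at chr5:112213228-112229395 on the minus strand, Snhg11 (ENSMUSG00000044349) at chr2:158375638-158386145 on the plus strand and Mir124a-1hg (ENSMUSG00000097545) at chr14:64587331-64593961 on the plus strand. GENCODE gives Snhg11 the type protein_coding and the other 7 matched members long noncoding types, whereas RefSeq gives all 9 as lncRNA. In RefSeq (GRCm38.p6), 5930403L14Rik spans chr4:154630691-154636367 on the minus strand, inside the gene Prdm16 on the same strand, with 0 Prdm16 exons in its span and the nearest one 356 bases away.

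The longest ATG-to-stop reading frame over all annotated transcripts ran from 64 codons in Malat1 to 199 codons in Meg3 among the 8 members with transcripts in GENCODE. The median was 392 codons for the 21951 protein-coding genes and 64 codons for the 10155 genes of long noncoding types. The transcripts also differed in repeat content. Miat carried the motif TACTAAC, which resembles the branch point bound by splicing factor 1, 6 times in its longest transcript, all in its last exon. Of the genes of long noncoding types, 4.00% held the motif at all and 2 held it 5 or more times in one transcript. The search was on the transcript strand, and the reverse complement was found 0 times in that transcript. The stretch with 3 of the 6 copies is shown because the repeats are the feature that sets the sequence of Miat apart from the other members with GENCODE transcripts, which held at most 1 copy. It covers chr5:112217309-112217460 (mm10, minus strand), with the copies in capitals.
Miat: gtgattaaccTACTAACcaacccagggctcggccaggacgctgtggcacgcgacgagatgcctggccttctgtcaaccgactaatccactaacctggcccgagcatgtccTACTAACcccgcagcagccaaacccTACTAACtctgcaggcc

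The 3 RNAs of the Dlk1-Dio3 region span 19 microRNA genes with 35 mature microRNAs in RefSeq (GRCm38.p6), of which Meg3 holds 3, Rian 6 and Mirg 26. The table used here holds no microRNA inside the other 6 members, and miR-124 and miR-3078 in Mir124a-1hg are named only. Examples are printed to show what the 3 hosts carry, on the plus strand, with the seed (bases 2 to 8) in capitals. The counts below are those of the host transcripts, not of mature microRNAs, and reads that overlapped a host exon and a listed microRNA gene were left uncounted. Within the 3 hosts, miR-453 and miR-496a-5p share one seed, and the seeds of miR-485-3p and miR-154-3p differ only in their first base.
miR-770-5p, Meg3, chr12:109563710-109563731: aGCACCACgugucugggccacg
miR-370-3p, Rian, chr12:109618305-109618326: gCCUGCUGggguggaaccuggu
miR-134-5p, Mirg, chr12:109734145-109734166: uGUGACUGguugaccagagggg
miR-453, Mirg, chr12:109735669-109735692: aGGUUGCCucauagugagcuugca
miR-496a-5p, Mirg, chr12:109739132-109739152: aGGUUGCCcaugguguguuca
miR-485-3p, Mirg, chr12:109734946-109734967: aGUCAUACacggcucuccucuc
miR-154-3p, Mirg, chr12:109738474-109738495: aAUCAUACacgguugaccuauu

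The libraries held 19039295 to 30451430 counts on named features. Levels are given as CPM, counts per 1000000 counts of a library after scaling by TMM factors over all 15 libraries. Reads outside annotated exons made up 12.6% to 14.9% in the IPs and 16.8% to 20.9% in the inputs, and reads on more than one feature 2.88% to 3.15% and 6.35% to 9.60%. The part of these differences in the levels below was not tested. In cKO vDG replicate 1, in both the IP and the input, the Y-linked genes Ddx3y, Eif2s3y, Kdm5d and Uty had 0 counts, which goes against a pool of both sexes, whereas all 4 were counted in the other 13 libraries. Htr4 itself was at 13.5 to 16.0 CPM in the WT vDG IP and at 27.0 and 30.2 CPM in the cKO vDG IP. Its count is a sum over all exons, so it does not check the deletion of exon 5.

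Together the 9 RNAs took 1.06% to 1.605% of the counts in the vDG inputs, 1.45% to 2.30% in the dDG inputs and 0.0313% to 0.0545% in the IPs. Malat1 alone made up 0.979% to 2.23% of the counts in the inputs. Per kilobase of GENCODE exon, Malat1 ranked number 4 of 23459 genes in the WT vDG input, with a mean of 1502 CPM per kilobase, and number 925 in the WT vDG IP, with 42.9 CPM per kilobase. The gene models used for counting may differ from GENCODE, and the effect on these values was not tested. On the same per-kilobase scale the order in the WT vDG input was Malat1, Meg3 (34.0), Snhg11 (16.9), Mir124a-1hg (16.0), Miat (13.4), Rian (5.74), Neat1 (0.278) and Mirg (0.0947). The ranges of Meg3 and Snhg11 overlapped between libraries, as did those of Snhg11, Mir124a-1hg and Miat, whereas Malat1, Rian, Neat1 and Mirg were each apart from their neighbours. In the WT vDG IP Rian (1.79) stood above Miat (0.967) and Mir124a-1hg (0.911), whereas it lay below both in the input. Snhg11 (2.88) and Meg3 (2.55) were higher still, and their ranges overlapped, as did those of Miat and Mir124a-1hg.

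**Figure D1:**
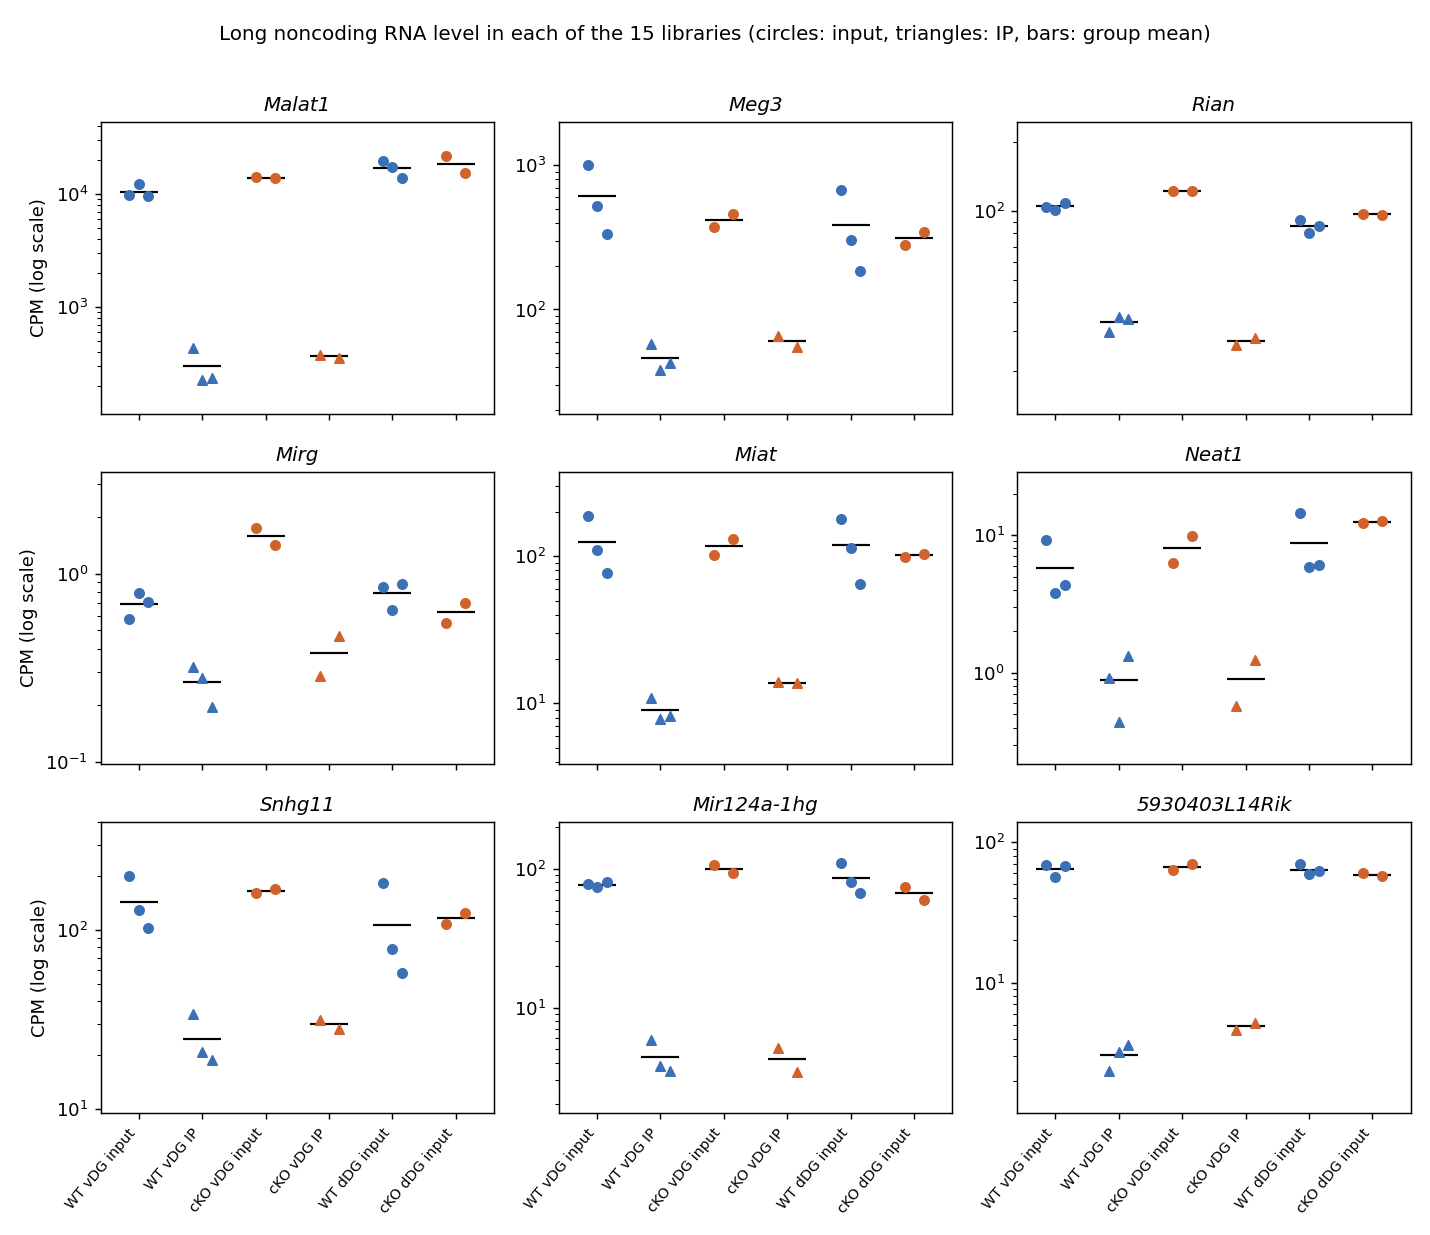
CPM on a log scale of each long noncoding RNA in each of the 15 libraries, by group, with circles for inputs, triangles for IPs and a bar at the group mean; blue is WT and orange is cKO. In every panel the vDG IP libraries sit below all vDG input libraries of their genotype, and Meg3, Miat, Snhg11 and Neat1 spread widely among the WT inputs.

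Malat1, the speckle RNA, had the highest level of the 9 in every group. It was at 9743, 12194 and 9523 CPM in the WT vDG inputs and at 434, 228 and 237 CPM in the WT vDG IPs. In cKO it was at 14217 and 13773 CPM in the inputs and at 378 and 357 CPM in the IPs. The fitted level in the IP was 35.6-fold lower in WT (log2 fold change -5.15, SE 0.25) and 39.5-fold lower in cKO (-5.30, SE 0.10), and the lowest WT input stood 21.9-fold above the highest WT IP. Ordered from the lowest IP to input ratio in WT, Malat1 was number 59 of 15011 tested genes and number 7 of the 2118 genes with at least 100 CPM in the WT vDG input.
Neat1 was scarce, at 9.23, 3.77 and 4.33 CPM in the WT vDG inputs and at 0.915, 0.437 and 1.33 CPM in the WT IPs. In cKO the inputs were at 6.24 and 9.88 CPM and the IPs at 0.571 and 1.23 CPM. The fitted fold was 6.53 lower in WT (-2.71, SE 0.42) and 9.13 lower in cKO (-3.19, SE 0.40), with IP libraries from 4.36-fold to 14.1-fold below their mean input. The 2 neighbouring genes of chromosome 19 thus differed in how far they fell, and Malat1 was 1056-fold to 3233-fold more abundant than Neat1 in the WT vDG inputs and 179-fold to 522-fold in the WT IPs, in CPM.

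Miat was at 187, 109.6 and 77.5 CPM in the WT vDG inputs and at 10.9, 7.79 and 8.22 CPM in the IPs. In cKO it was at 103 and 130.4 CPM in the inputs and at 13.9 and 13.7 CPM in the IPs. The fitted level in the IP was 14.1-fold lower in WT (-3.82, SE 0.28) and 8.76-fold lower in cKO (-3.13, SE 0.14), and no IP library reached an input library.

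In the Dlk1-Dio3 region, Meg3 was depleted further than Rian and Mirg, whose single-library folds overlapped. Meg3 was at 996, 519 and 333 CPM in the WT vDG inputs and at 57.9, 37.8 and 42.6 CPM in the WT IPs, 13.6-fold lower by the fit (-3.76, SE 0.32). In cKO the inputs were at 370.4 and 461 CPM and the IPs at 65.6 and 55.2 CPM, 7.14-fold lower (-2.84, SE 0.13). Rian, its downstream neighbour, was far more even between libraries.
Rian was at 104, 101 and 109 CPM in the WT vDG inputs and at 29.8, 34.3 and 33.9 CPM in the WT IPs, 3.26-fold lower (-1.71, SE 0.12). In cKO the inputs were both at 122 CPM and the IPs at 26.1 and 28.0 CPM, 4.69-fold lower (-2.23, SE 0.11). In the WT IPs Rian thus stood at 28.4% to 32.8% of its mean input level, against 6.15% to 9.41% for Meg3.
Mirg was near the limit of counting, with 15, 23 and 18 reads in the WT vDG inputs and 8, 7 and 5 in the WT IPs. In cKO it had 46 and 39 reads in the inputs and 6 and 11 in the IPs. The fitted fold was 2.64 lower in WT (-1.40, SE 0.51) and 4.31 lower in cKO (-2.11, SE 0.60). The ratio of Meg3 to Rian in CPM was 9.55, 5.12 and 3.06 in the WT vDG inputs and 1.94, 1.10 and 1.255 in the WT IPs, and in cKO 3.04 and 3.76 in the inputs and 2.52 and 1.97 in the IPs.

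**Figure D2:**
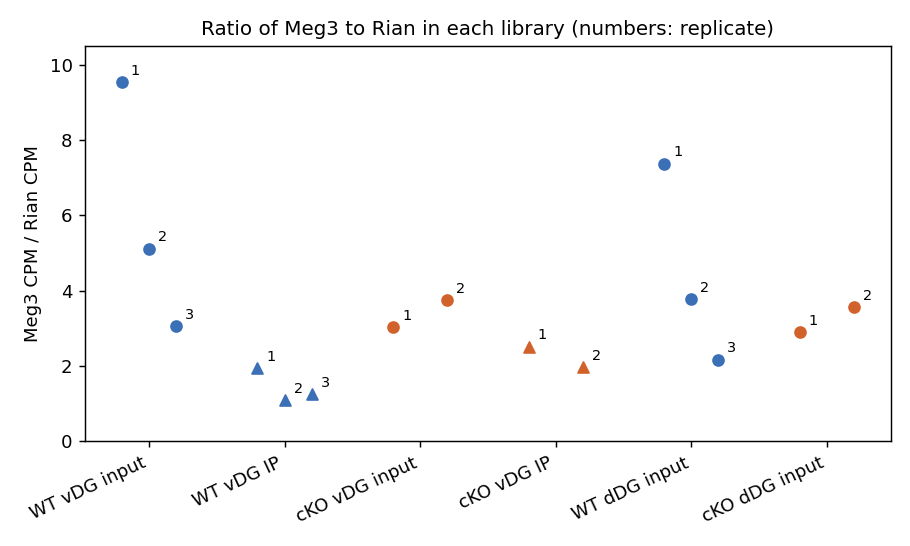
Ratio of Meg3 CPM to Rian CPM in each library, by group, on a linear axis from 0, with the replicate number beside each point; circles are inputs, triangles IPs, blue WT and orange cKO. The WT IP ratios of 1.10 to 1.94 lie below every input ratio, and the ratios of replicate 1 of the WT inputs, 9.55 and 7.37, lie above the rest.

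Among the host genes, Mir124a-1hg was at 77.4, 74.0 and 79.9 CPM in the WT vDG inputs and at 5.85, 3.78 and 3.51 CPM in the WT IPs. In cKO it was at 107 and 92.7 CPM in the inputs and at 5.09 and 3.45 CPM in the IPs. The fitted fold was 17.9 lower in WT (-4.16, SE 0.19) and 24.4 lower in cKO (-4.61, SE 0.18).
Snhg11 was at 201, 129 and 102 CPM in the WT vDG inputs and at 33.8, 20.9 and 18.9 CPM in the WT IPs. In cKO the inputs were at 160.2 and 169 CPM and the IPs at 31.5 and 28.1 CPM. The fitted fold was 5.97 lower in WT (-2.58, SE 0.25) and 5.74 lower in cKO (-2.52, SE 0.11), close to one another in size.
5930403L14Rik was at 69.2, 56.0 and 67.5 CPM in the WT vDG inputs and at 2.35, 3.22 and 3.59 CPM in the WT IPs, 21.4-fold lower (-4.42, SE 0.18). In cKO it was at 63.3 and 69.9 CPM in the inputs and at 4.61 and 5.15 CPM in the IPs, 14.1-fold lower (-3.82, SE 0.15). Prdm16, the gene around it, was at 17.8 to 18.6 CPM in the WT vDG inputs and at 9.51 to 12.6 CPM in the WT IPs, and the ratio between fractions was thus smaller than for 5930403L14Rik.

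**Figure D3:**
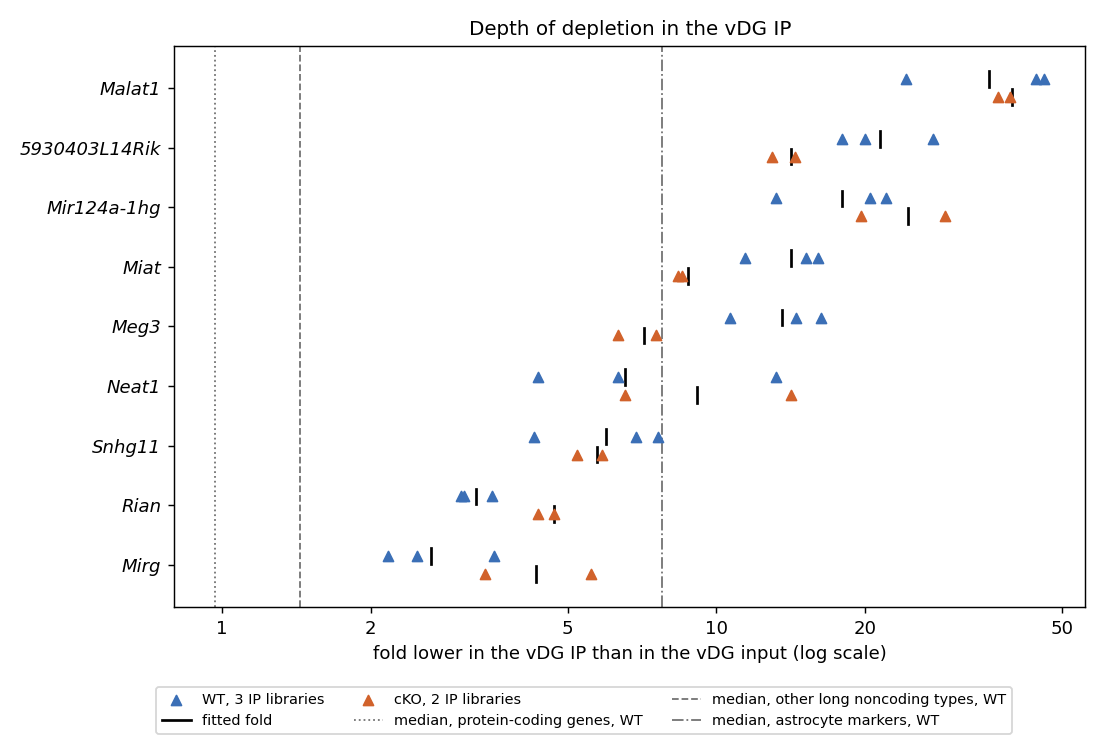
Fold by which each RNA was lower in the vDG IP than in the vDG input, on a log axis; triangles are single IP libraries against the mean input of their genotype, black ticks are the fitted folds, and vertical lines are WT medians of protein-coding genes, other long noncoding types and 5 astrocyte markers. Malat1 lies at 24.2 to 45.9 in WT, Rian at 3.05 to 3.52, and all points of the 9 RNAs lie to the right of the median of other long noncoding types. The 9 RNAs were chosen for low IP to input ratios, so that position is no test of them.

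In order of the WT fit, Malat1 was followed by 5930403L14Rik, Mir124a-1hg, Miat, Meg3, Neat1, Snhg11, Rian and Mirg. The folds of single WT IP libraries overlapped between all neighbours in this order except Snhg11, at 4.27 to 7.63, and Rian, at 3.05 to 3.52. In cKO the order was Malat1, Mir124a-1hg, 5930403L14Rik, Neat1, Miat, Meg3, Snhg11, Rian and Mirg, and the overlaps were between 5930403L14Rik and Neat1, Neat1 and Miat, and Rian and Mirg. Malat1 thus came first and Rian and Mirg last in both genotypes. The IP libraries of all 9 RNAs lay below all input libraries of their genotype, which held for 22.3% of tested genes in WT and 31.4% in cKO. The criterion for depletion (less than 0.5 of the input and FDR under 0.05 by edgeR's quasi-likelihood test) was met by 8 members in WT, all but Mirg, and by 9 in cKO, beside 11.4% and 10.7% of tested genes. These counts follow from how the RNAs were chosen and are no test of them. Leaving out 1 library at a time kept each fitted value negative, with Malat1 between -5.52 and -4.97 in WT, Rian between -1.73 and -1.64 and Meg3 between -4.06 and -3.23. Neat1 in cKO ranged from -3.85, without cKO vDG IP replicate 2, to -2.72.

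The median log2 fold change of the 9 RNAs, which were chosen for low values in this contrast, was -3.76 in WT and -3.13 in cKO. It was 0.04 over 12981 protein-coding genes and -0.53 over 489 other genes of long noncoding types in WT, of which 83% were below 0 and 23.9% met the criterion for depletion. In a list of other long noncoding RNAs known from brain, 11 of 20 tested members met it in WT (median -1.16) and 10 of 20 in cKO (median -1.54). Rmst, a long noncoding RNA of neural progenitors, was at -4.61 in WT, and Dlx6os1, which is made beside the interneuron genes Dlx5 and Dlx6, at -3.72. By contrast Tug1 (-0.08) and the imprinted Peg13 (0.04) were near the input level. Among snoRNA host genes other than Snhg11, 4 of 12 met the criterion in each genotype (medians -0.62 and -0.93), with Snhg7 lowest at -2.77 in WT and -3.73 in cKO.

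Genes for proteins of the nuclear bodies to which Malat1 and Neat1 belong did not meet the criterion for depletion in either genotype. Of 10 tested paraspeckle protein genes 3 met the criterion for enrichment in WT (at least 25% above the input and FDR under 0.05) beside 7.72% of all tested genes, with Nono at 0.46 and Sfpq at 0.44 on the log2 scale. Of 8 nuclear speckle protein genes 2 were enriched, Srrm2 (0.78) and Son (0.57). Among 7 tested protein-coding genes in and around the Dlk1-Dio3 region 3 were enriched and 1 depleted in WT, the latter being Rtl1 (-4.30), a retrotransposon-derived gene that is made from the paternal chromosome. Without strand in the counts, reads of Rtl1 and of RNA antisense to it cannot be told apart.

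Markers of astrocytes, microglia, interneurons and oligodendrocytes, which lack the tagged ribosome, were also low in the IP. In WT the median log2 fold change was -2.95 for 5 astrocyte markers, -3.20 for 6 microglia markers, -2.80 for 8 interneuron markers and -2.60 for 6 oligodendrocyte markers. It was 0.46 for 9 granule cell markers and 0.17 for 3 tested endothelial markers, 0 of which met the criterion for depletion, with a median of -0.22 in cKO. The summed level of the astrocyte markers was 416 to 504 CPM in the WT vDG inputs and 55.3 to 99.5 CPM in the IPs, that of the interneuron markers 464 to 524 and 166 to 190.0 CPM, that of the microglia markers 24.2 to 41.4 and 4.64 to 7.36 CPM, and that of the oligodendrocyte markers 367 to 444.1 and 171 to 213 CPM. None of these markers was at 0 in every library of a group. The granule cell markers, among them Prox1 and Calb1, summed to 1769.9 to 2097 CPM in the inputs and 2382 to 2632 CPM in the IPs. The part of untagged cells in the depletion of the 9 RNAs was not tested.

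The next question was whether the RNAs differed between ventral and dorsal DG, which was tested in the inputs. In WT 1 of 9 members passed the threshold, Malat1, beside 15.3% of all tested genes. Malat1 was at 19576, 17513 and 13893 CPM in the WT dDG inputs, all above the 9523 to 12194 CPM of the WT vDG inputs. It was 1.63-fold lower in vDG (log2 fold change -0.70, SE 0.13, 95% interval -0.98 to -0.42, FDR 0.00144 by edgeR's quasi-likelihood test), and the difference lay between -0.84 and -0.60 with 1 library left out. In cKO it was at 21664 and 15480 CPM in dDG and 14217 and 13773 CPM in vDG (-0.41, SE 0.13, FDR 0.0328). This call was lost without cKO dDG input replicate 1 (-0.16, FDR 0.563), with library size alone (FDR 0.103) and with at least 10 counts required in every library (FDR 0.0532). In bulk tissue, fewer cells of a type and less RNA per cell cannot be told apart.

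In cKO 6 of 9 members passed, beside 17% of tested genes: Malat1 and Neat1 were lower in vDG, and Meg3, Rian, Snhg11 and Mir124a-1hg higher. Mir124a-1hg, the host of miR-124, was at 107 and 92.7 CPM in cKO vDG and at 73.8 and 59.5 CPM in cKO dDG (0.58, SE 0.13, FDR 0.00315). Snhg11 was at 160.2 and 169 CPM in vDG and at 108 and 125 CPM in dDG (0.49, SE 0.11, FDR 0.00450). Both groups of 2 libraries were apart from each other for these genes, as they were for 58.1% of all tested genes.
Meg3 was at 370.4 and 461 CPM in cKO vDG and at 281 and 344 CPM in cKO dDG (0.41, SE 0.13, FDR 0.0292). Rian was at 122 CPM in both vDG libraries and at 96.8 and 96.6 CPM in dDG (0.33, SE 0.11, FDR 0.0427). Neat1 was at 6.24 and 9.88 CPM in vDG and at 12.3 and 12.7 CPM in dDG (-0.64, SE 0.20, FDR 0.0358). The call of Rian was lost with any 1 library left out (0.32 to 0.33, FDR 0.113 to 0.190), fits in which 1 region had a single library that was assumed to vary like those of the other.
Without cKO vDG input replicate 1, in which no Y-linked counts were found, Neat1 was at -0.36 (FDR 0.284) and Rian at 0.32 (FDR 0.159), whereas Malat1, Meg3, Snhg11 and Mir124a-1hg still passed. Neat1 was also lost without cKO dDG input replicate 1 (-0.67, FDR 0.0504) or replicate 2 (-0.61, FDR 0.115), with DESeq2 (FDR 0.0568) and with library size alone (FDR 0.0634). Meg3 was lost without cKO vDG input replicate 2 (0.23, FDR 0.236) or cKO dDG input replicate 1 (0.26, FDR 0.263), Snhg11 without cKO dDG input replicate 1 (0.39, FDR 0.0687) and Mir124a-1hg without cKO dDG input replicate 2 (0.43, FDR 0.0608). When all 15 libraries shared one estimate of the spread, none of the 6 calls passed, with differences of -0.41 for Malat1, 0.41 for Meg3, 0.34 for Rian, -0.63 for Neat1, 0.50 for Snhg11 and 0.58 for Mir124a-1hg.

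In WT, Meg3, Snhg11 and Neat1 spread widely between libraries. Meg3 was at 673, 303 and 186 CPM in the WT dDG inputs (0.66, 95% interval -0.10 to 1.43, FDR 0.260), and Snhg11 at 182, 78.5 and 57.7 CPM (0.44, FDR 0.383). Without WT dDG input replicate 1 the differences were 1.32 (FDR 0.00694) and 1.07 (FDR 0.00238). Those fits kept WT vDG input replicate 1, the highest of its region for Meg3 (996 CPM) and Snhg11 (201 CPM). Neat1 was at 14.4, 5.84 and 6.08 CPM in WT dDG (-0.61, FDR 0.268), and at -1.11 (FDR 0.0291) without WT vDG input replicate 1. In that fit WT dDG input replicate 1, the highest of its region for Neat1, was kept. Without a count filter all 3 passed, Meg3 at 0.68 (FDR 3.2e-07), Snhg11 at 0.45 (FDR 0.00385) and Neat1 at -0.60 (FDR 0.0276). With the replicate number as a block all 3 passed as well. At each replicate number Meg3 and Snhg11 were higher in vDG than in dDG, and Neat1 was lower. No source used here says that such a number marks a shared pool. Rian was at 91.2, 80.3 and 85.8 CPM in WT dDG, below all WT vDG inputs, and missed the threshold (0.28, SE 0.11, FDR 0.0924). Rian and Malat1 were the members whose WT groups did not overlap, as was the case for 31.3% of tested genes.
Mir124a-1hg was at 109.7, 80.2 and 67.4 CPM in WT dDG, with an interval of the difference from -0.47 to 0.15. 5930403L14Rik was at 69.3, 59.2 and 62.8 CPM in WT dDG and 59.9 and 57.2 CPM in cKO dDG, close to its vDG levels, with intervals of -0.25 to 0.26 in WT and -0.07 to 0.43 in cKO. Miat, at 179, 114 and 64.9 CPM in WT dDG and 98.2 and 104 CPM in cKO dDG, had intervals of -0.55 to 0.67 and -0.06 to 0.45. Mirg, with 13 to 27 reads in the dDG inputs, was at 1.35 in cKO (SE 0.47, FDR 0.0519) and -0.21 in WT. In cKO it passed with library size alone (FDR 0.0408), without a count filter (FDR 0.0313), with at least 10 counts in every library (FDR 0.0218) and without cKO vDG input replicate 2 (FDR 0.0492).

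**Figure D4:**
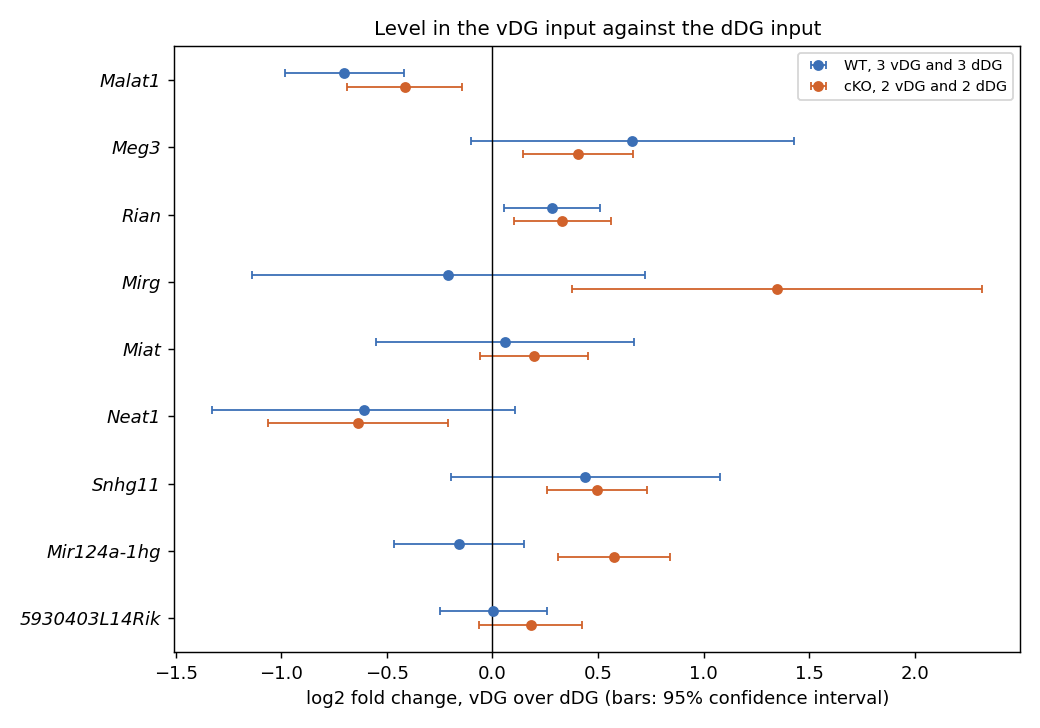
Log2 fold change of each long noncoding RNA between vDG and dDG inputs, in WT (blue) and cKO (orange), with 95% intervals from edgeR's quasi-likelihood fit. Malat1 lies left of 0 in both genotypes, at -0.70 and -0.41, and 5930403L14Rik lies at 0.00 in WT.

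Cell type markers also differed between the regions. Of 9 granule cell markers 5 were lower in vDG than in dDG in each genotype and 1 was higher in WT, and 4 of 8 interneuron markers were higher in vDG in WT and 3 of 8 in cKO. Of 6 oligodendrocyte markers 3 were lower in vDG in WT and 2 in cKO. Choroid plexus markers had a median of -2.96 in WT, with 2 of 3 tested lower in vDG, and of 0.83 in cKO, with 1 of 2 tested higher. Of 4 mossy cell markers 1 was higher in vDG in WT and 2 in cKO. Of 5 CA pyramidal cell markers 2 were higher and 2 lower in WT, and 2 higher and 1 lower in cKO. Of 5 progenitor and immature neuron markers 1 was higher in WT (median -0.44) and 3 were lower in cKO (median -0.53), and of 5 astrocyte markers 1 was lower in cKO. In WT the granule cell markers summed to 2927 to 3410.4 CPM in dDG, the interneuron markers to 294 to 357 CPM and the oligodendrocyte markers to 478 to 507 CPM. Their part in the differences of Malat1 and the other members was not tested. Of the 20 other long noncoding RNAs tested, Dlx6os1 was higher in vDG (0.45) and Dleu2 lower (-0.72) in WT, and their median was 0.00. Of the protein-coding genes in and around the Dlk1-Dio3 region, 1 of 7 tested was higher in vDG in WT, and 2 of 6 were higher and 1 lower in cKO.

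Loss of Htr4 in the tagged cells was addressed by comparing cKO with WT within each kind of library. None of the 9 RNAs passed the threshold in any of the 3 comparisons, at FDR 0.1 in the vDG IP and 0.05 in the inputs, by edgeR's quasi-likelihood test. In the vDG IP 8 members were tested, since Mirg had too few counts, and 0.42% of all tested genes passed. Miat had the lowest p of the 8, with 13.9 and 13.7 CPM in cKO against 7.79 to 10.9 CPM in WT (0.62, SE 0.21, 95% interval 0.16 to 1.07, FDR 0.300). 5930403L14Rik was at 4.61 and 5.15 CPM against 2.35 to 3.59 CPM (0.68, SE 0.30, interval 0.04 to 1.31, FDR 0.401), and passed when all 15 libraries shared one fit (0.68, FDR 0.0744). Rian was at 26.1 and 28.0 CPM against 29.8 to 34.3 CPM (-0.28, interval -0.61 to 0.06, FDR 0.508). These 3 members had groups that did not overlap, as did 31.1% of tested genes. At an unadjusted p under 0.05 there were 3 members, Miat, 5930403L14Rik and Meg3, beside 11.7% of tested genes. In this IP comparison 1 of 6 tested interneuron markers was lower in cKO (median -0.35). Of 5 astrocyte markers (median -0.72) and 9 granule cell markers (median 0.16) 0 passed. Their part in the values of these RNAs was not tested.
For Malat1 the interval was -0.18 to 0.77 in the IP, with 378 and 357 CPM in cKO inside the WT range of 228 to 434 CPM, and without WT IP replicate 1 the difference was 0.66 (FDR 0.0418). Neat1 and Mir124a-1hg had wide intervals in the IP, of -1.30 to 1.34 and -0.71 to 0.64. Without cKO vDG IP replicate 1, Miat was at 0.59, 5930403L14Rik at 0.74 and Rian at -0.23, with FDR of 0.908, 0.908 and 0.926, and 0 genes in all passed.

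In the vDG input, where 2.44% of tested genes passed, Malat1 had the lowest FDR of the 9. It was at 14217 and 13773 CPM in cKO, above the 9523 to 12194 CPM of WT (0.43, SE 0.13, 95% interval 0.17 to 0.69, FDR 0.0724). DESeq2 gave an adjusted p of 0.0392 for the same difference. The FDR was 0.00666 without a count filter, 0.0152 without WT vDG input replicate 2 and 0.300 without cKO vDG input replicate 1. Mir124a-1hg was at 107 and 92.7 CPM in cKO against 74.0 to 79.9 CPM in WT (0.39, SE 0.13, FDR 0.117, and 0.0462 by DESeq2).
Mirg had 46 and 39 reads in cKO against 15 to 23 in WT (1.21, SE 0.44, FDR 0.169). Rian was at 122 CPM in both cKO libraries against 101 to 109 CPM in WT (0.24, interval -0.02 to 0.49). These 4 members were higher in both cKO libraries than in any WT library, as were 13.2% of tested genes. Meg3 went the other way in fit (-0.55, interval -1.07 to -0.04, FDR 0.290), but its cKO values of 370.4 and 461 CPM lay within the WT range of 333 to 996 CPM, and without WT vDG input replicate 1 the difference was -0.027 (FDR 0.958). Without WT vDG input replicate 1, Neat1 was at 1.005 (FDR 0.00967) and Snhg11 at 0.52 (FDR 0.0257). Of 5 astrocyte markers 3 were lower in cKO in this input (median -0.62, summed 296 to 330 CPM against 416 to 504 CPM), as was 1 of 9 granule cell markers (list median -0.058), while 1 of 3 tested choroid plexus markers was higher (median 1.08) and 0 of 6 microglia markers passed (median -0.66). The part of these markers in the values of the 9 RNAs was not tested. Of 7 tested protein-coding genes in and around the Dlk1-Dio3 region, 1 was lower in cKO in this input, Dync1h1 (-1.03, FDR 0.00985), a dynein heavy chain gene. At an unadjusted p under 0.05 there were 4 members in this input, Malat1, Meg3, Mirg and Mir124a-1hg, beside 14.8% of tested genes.

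In the dDG input 0.0325% of tested genes passed, and the lowest FDR of the 9 was 0.430, that of Mir124a-1hg (-0.36, interval -0.74 to 0.02). At an unadjusted p under 0.05 there were 0 members, beside 12.2% of tested genes. Malat1 differed by 0.13 (interval -0.19 to 0.45), and Meg3 by -0.31 (interval -1.05 to 0.43). Rian alone had groups that did not overlap, at 96.8 and 96.6 CPM in cKO against 80.3 to 91.2 CPM in WT (0.17, FDR 0.557), which held for 29.4% of tested genes. Without WT dDG input replicate 1, Neat1 was at 1.07 (FDR 0.0213) and Snhg11 at 0.78 (FDR 0.0458).

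**Figure D5:**
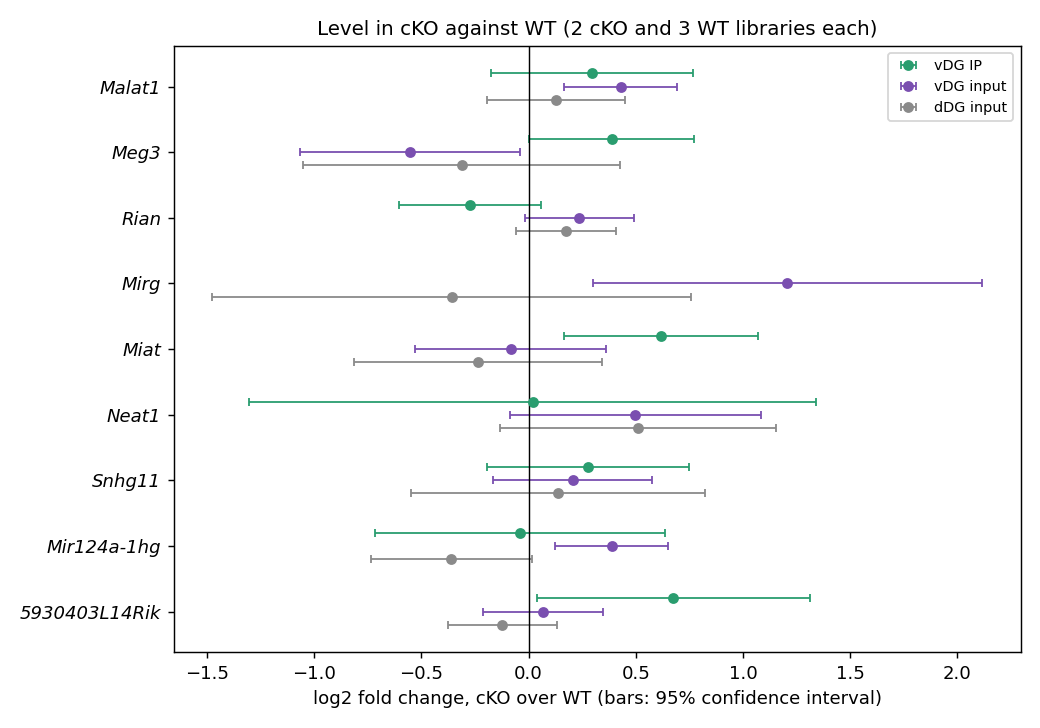
Log2 fold change of each long noncoding RNA between cKO and WT in the vDG IP, vDG input and dDG input, with 95% intervals from edgeR's quasi-likelihood fit. No RNA passed the FDR threshold of its comparison; Miat (0.62) and 5930403L14Rik (0.68) lie furthest to the right in the IP and Mirg (1.21) in the vDG input, and Mirg was not tested in the IP.

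Whether the depth of depletion differed between genotypes was tested as an interaction of genotype and fraction. The 9 RNAs were selected on IP and input values that also enter this term, so their share at low p is only a description. Of 16093 tested genes 0 passed FDR 0.05 by edgeR's quasi-likelihood test, and DESeq2 also called 0. Without a count filter 12 genes passed, Meg3 among them (0.97, FDR 0.00493). At an unadjusted p under 0.05 there were 3.09% of tested genes, 3 of the 9 RNAs among them: Rian with a difference of -0.50 (SE 0.17, interval -0.86 to -0.13), Meg3 with 0.96 (SE 0.42, interval 0.08 to 1.83) and 5930403L14Rik with 0.63 (SE 0.25, interval 0.10 to 1.15), where a negative value stands for a deeper depletion in cKO. Without WT vDG input replicate 1 the difference for Meg3 was 0.43. For Malat1 the difference between genotypes was -0.12 (interval -0.72 to 0.48) and for Snhg11 0.09 (interval -0.62 to 0.80). The interaction of genotype and region also passed for 0 of 16306 genes, with 12.1% at an unadjusted p under 0.05. DESeq2 called 256 genes there. Mir124a-1hg had a difference between genotypes of 0.76 (SE 0.23, FDR 0.206) and Mirg of 1.58 (SE 0.65, FDR 0.344) by edgeR. Without a count filter 362 genes passed, Mir124a-1hg among them (0.72, FDR 0.0164). With the count filter, edgeR did not show a difference from WT for any of the regional differences that passed in cKO alone.

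The spread among WT inputs was uneven across the members. In WT vDG input replicate 1 the level over the mean of the other 2 replicates was 2.34 for Meg3, 2.28 for Neat1, 2.002 for Miat and 1.74 for Snhg11, in CPM, and in WT dDG input replicate 1 it was 2.75, 2.42, 1.99 and 2.67. For Malat1, Rian, Mirg and 5930403L14Rik these ratios lay between 0.767 and 1.247 in both regions, and for Mir124a-1hg they were 1.005 in vDG and 1.49 in dDG. Of 8707 genes with at least 10 CPM, 0.666% were over 1.5 in the vDG input and 0.965% in the dDG input. This comparison was made after the values were seen and is a description. Over the 10 inputs Meg3 correlated with Miat (r = 0.904) and Snhg11 (r = 0.872) and less with its neighbour Rian (r = 0.316), all from the same libraries, and no p is given.

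Finally, the genes most like each member over all 15 libraries were listed by Pearson's r of log2 CPM among 8700 genes. They were Pcp4l1 for Malat1 (r = 0.990), Appl2 for Meg3 (0.971), Dlx6os1 for Rian (0.990), Cenpb for Mirg (0.913), Fyco1 for Miat (0.989), Cd2ap for Neat1 (0.978), AK028782 for Snhg11 (0.976), DQ539915 for Mir124a-1hg (0.993) and Csrp1 for 5930403L14Rik (0.997). All points share the split between IP and input, and over the 10 inputs alone r was lower for all 9 pairs, from 0.210 for 5930403L14Rik and Csrp1, 0.473 for Mir124a-1hg and DQ539915 and 0.665 for Malat1 and Pcp4l1 to 0.939 for Neat1 and Cd2ap.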

How the data were processed

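RNA from the pulldown and from the cleared homogenate before pulldown was amplified with an unstranded kit and sequenced as pairs. The authors aligned reads to mm10 with STAR 2.4.2a, removed duplicates with SAMtools 0.1.19-444 and deposited raw counts per gene from HTSeq in its union mode. Sense and antisense reads cannot be told apart in such counts, and removing duplicates without molecular identifiers can compress very abundant RNAs such as Malat1. FastQC 0.11.4 and DESeq2 1.4.5 are also named in the submitters' processing notes. The 6 rows that name no gene were left out of library sizes.

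Counts were tested in R 4.3.3 with edgeR 4.0.16 (filterByExpr with a minimum count of 10, TMM within the groups compared, quasi-likelihood F-test, Benjamini-Hochberg FDR over all tested genes) at FDR 0.1 for cKO against WT in the vDG IP and 0.05 elsewhere. limma 3.58.1 was loaded with edgeR, and DESeq2 1.42.0 was an alternative. Figures were drawn with matplotlib 3.10.9. Depths were 19039295 to 30451430 counts. Intervals are 95%. P-values measure the spread between these libraries. Exact permutation of single values could reach no p under 0.1 with 3 against 3 libraries, 0.2 with 3 against 2 and 0.333 with 2 against 2. The members and gene lists were chosen with earlier results of these data known. Beside the members and Htr4, the text names up to 2 genes per list and comparison, those with the largest absolute log2 fold change past the threshold, and genes from the 3 most correlated with each member (mean of at least 10 CPM). Tug1, Peg13 and Prdm16 were named after their values were seen. The depletion test was used only as a description. The methods were tested on simulated data.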

Additional observations from a re-analysis of the deposited data

How the results depend on the processing

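The direction of depletion in the IP held for all 9 RNAs under each alternative run in which they were tested, and no member was called between cKO and WT in the main tests. Mirg was not tested in the IP against input with at least 10 counts required in every library. Of the alternatives for single members, 745 kept direction and side of the threshold or, for IP against input, which is only described here, moved by less than the SD between replicates, 28 gained the threshold, 22 lost it, 7 moved without a test and 25 turned in sign. The cause of these changes was not tested. The number of genes called in the vDG IP (60) was 353 with DESeq2, 115 with library size alone, 379 without a filter, 465 with all 15 libraries in 1 fit, 0 at FDR 0.05 and 0 to 184 with 1 library left out. In the vDG input (385) it was 626 with DESeq2, 660 without a filter, 224 in 1 fit, 687 at FDR 0.1 and 6 to 638 with 1 library left out. In the dDG input (5) it was 188 with DESeq2, 378 without a filter, 0 in 1 fit, 17 at FDR 0.1 and 0 to 130 with 1 library left out. For regions in cKO (2642) it was 1366 in 1 fit and 1428 to 3084 with 1 library left out. For IP against input it was 1682 in WT (2870) with at least 10 counts in every library, and 1894 to 3702 in cKO (3342) with 1 library left out. For the interactions (0 each) it was 12 for fraction without a filter, and for region 256 with DESeq2, 362 without a filter and 0 to 48 with 1 library left out. Some signs turned. In cKO against WT in the vDG IP, Neat1 was at -0.014 with library size alone and -0.64 to 0.45 with 1 library left out, and Mir124a-1hg at -0.35 to 0.23. In the vDG input the ranges were -0.33 to 0.33 for Miat and -0.018 to 0.14 for 5930403L14Rik. In the dDG input they were -0.14 to 0.36 for Malat1, -0.64 to 0.35 for Meg3, -0.53 to 0.18 for Miat and -0.16 to 0.78 for Snhg11. For regions in WT they were -0.35 to 0.47 for Miat, -0.31 to 0.050 for Mir124a-1hg and -0.048 to 0.083 for 5930403L14Rik, which was at -0.0090 with DESeq2 and -0.0089 with its size factors. Without a filter Malat1 (0.43, FDR 0.00666 by edgeR) and Meg3 (-0.55, FDR 0.00188) passed in the vDG input, and Meg3 in the fraction interaction (0.97, FDR 0.00493), as Mir124a-1hg did in the region interaction (0.72, FDR 0.0164). Mirg, with 5 to 46 reads a library, limits any statement on it.

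With the replicate number as a block, 137 genes were called in the dDG input and 8 in the region interaction. Malat1 turned to -0.018 and Snhg11 to -0.051 in the dDG input, Meg3 passed in the vDG input (-0.79, FDR 0.00178 by edgeR) and in the WT regions (0.72, FDR 3.7e-05), as did Neat1 (-0.60, FDR 0.0166) and Snhg11 (0.55, FDR 0.00228), and Mirg passed in the cKO regions (1.34, FDR 0.0336). Same-numbered WT libraries correlated in their deviations at 0.479, -0.170 and -0.334 for IP and input and at 0.388, -0.114 and 0.225 for the regions, and cKO libraries at 0.515 and 0.145. The methods take input RNA from the supernatant used for pulldown and dissect both regions, but no source used here says that a number marks a shared pool, and the records give IPs and inputs pools of different size. Both cKO vDG libraries numbered 1 lack Y-linked counts, whereas cKO dDG input replicate 1 has them, and the cKO dDG files carry other replicate numbers than their titles. The numbers were therefore not taken to pair the samples, and a block over the cKO regions may join unlike pools.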
